A study of Mus musculus with 20 samples.

Results

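In mouse colon, 10 genes of glucose uptake and glycolysis were followed: Slc2a1, Hk2, Pfkl, Aldoa, Tpi1, Gapdh, Pgk1, Eno1, Pkm and Ldha. They were found by gene name in both deposited count tables, in which the 10 names take 11 of 56748 rows for chow and 11 of 31184 rows for the high fat diet (HFD), since Aldoa names 2 rows. Gapdh was picked because its level differed in the colons of chow-fed Pcca Alb mice, so its values in the 2 comparisons with those mice are described here without a test. The other 9 were added as its pathway neighbours.

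The series holds 20 colon RNA libraries in 5 groups of 4, and all mice carried Pcca ff, a floxed gene for the alpha subunit of propionyl-CoA carboxylase. HFD Vill and HFD ff mice were males switched at 6 weeks of age to a feed in which fat made up 60% of calories, kept on it for 12 weeks and killed at 18 weeks. Chow Vill, chow Alb and chow ff mice ate standard chow and were killed at 9 weeks, and every mouse was fasted for 4 hours. Vill mice lost Pcca through Villin-Cre, which is active in the epithelium along the intestine, Alb mice lost it through Albumin-Cre, which is active in liver cells, and ff littermates were the controls. The sections were flushed, frozen and extracted whole, so muscle, stroma and immune cells are in each library, and fewer cells of a type and less RNA per cell cannot be told apart.

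Depth ran from 16.9 to 24.4 M counted reads in HFD libraries, against 27.9 to 40.4 M in chow libraries. Ddx3y, a Y-linked gene, had 1458 to 2756 reads in HFD libraries and 0 in chow libraries, whereas Xist had 0 to 12 reads in HFD and 22486 to 59322 in chow libraries. Diet, age, sex and count table therefore differ together between chow and HFD and cannot be told apart. Pcca, the targeted gene, lay at 32.2 to 35.9 CPM (counts scaled to parts per M of effective library size) in HFD Vill and 28.9 to 57.9 CPM in HFD ff libraries. It lay at 28.2 to 33.9 CPM in chow Vill, 39.3 to 60.2 CPM in chow Alb and 40.6 to 57.2 CPM in chow ff libraries. Every chow Vill library lay below every chow Alb and chow ff library. On HFD the groups overlapped, because the libraries labelled HFD ff 1 and 3, at 28.9 and 31.4 CPM, lay below all 4 HFD Vill libraries, so Pcca goes against the label of these 2, while HFD ff 2 and 4 stood at 52.8 and 57.9 CPM. Any direction between Vill and ff on HFD rests in part on these labels. Colonocyte markers, 9 of 9 genes, were measured in every library, with a summed level of 3307 to 13559 CPM. The libraries labelled HFD ff 1 and 3, chow Vill 1 and chow ff 2 stood apart by the small intestine gene Sis, at 33.6 to 74.3 CPM against at most 1.96 CPM in the other libraries. Over all 10 small intestine markers the sum was 845 and 1129.5 CPM in the libraries labelled HFD ff 1 and 3, against 70.7 to 394 CPM in the other 6 HFD libraries. Results in which these 2 libraries change a call or a direction are given with and without them.

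Glycolysis turns glucose into pyruvate in the cytosol. Slc2a1 (GLUT1) carries glucose across the plasma membrane, hexokinase 2 traps it as a phosphate ester, and liver-type phosphofructokinase, encoded by Pfkl, commits it to the pathway. Aldolase A splits the sugar, triose phosphate isomerase interconverts the resulting trioses, and glyceraldehyde-3-phosphate dehydrogenase, encoded by Gapdh, makes NADH in the first step of the energy-yielding phase. Phosphoglycerate kinase 1, enolase 1 and the muscle-type pyruvate kinase gene Pkm complete it, and lactate dehydrogenase A turns pyruvate into lactate. In the colon, mature surface cells burn mainly butyrate and other short-chain fatty acids, while dividing crypt cells rely more on glucose. Gapdh is also a common reference gene for normalization.

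The Gapdh transcript shares sequence with many other genes of the mouse genome, and this bears on what a read count for Gapdh holds. Gapdh (ENSMUSG00000057666) lies on the minus strand of chromosome 6 at 125138678 to 125143430 in the deposited tables, which use the mm39 build. Its longest protein-coding transcript has 1420 bases in GENCODE M21, and 82.5% of its 50-base windows also occur in another gene of that annotation. The windows are spread over 218 other genes, 213 of them pseudogenes, and 70 of these genes hold at least 10% of the windows. These 70, called reference copies here, hold between 10.1 and 82.5% of them, with a median of 29.9%. A stretch of 120 bases in the coding sequence, bases 546 to 665 of that transcript, is given for Gapdh and for 3 of its processed pseudogenes, to let the likeness be seen. Capitals mark bases that differ from Gapdh.
Gapdh: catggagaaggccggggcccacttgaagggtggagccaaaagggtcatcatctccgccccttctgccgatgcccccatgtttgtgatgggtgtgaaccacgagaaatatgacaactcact
Gm7336: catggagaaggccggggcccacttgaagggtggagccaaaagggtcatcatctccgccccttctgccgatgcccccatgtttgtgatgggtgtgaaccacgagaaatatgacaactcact
Gm5559: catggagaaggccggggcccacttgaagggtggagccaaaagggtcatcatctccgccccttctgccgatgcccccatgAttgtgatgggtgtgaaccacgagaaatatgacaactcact
Gm13394: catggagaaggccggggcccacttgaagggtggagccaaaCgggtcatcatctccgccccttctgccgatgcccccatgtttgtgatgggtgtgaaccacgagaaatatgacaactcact

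Over 1000 compared coding bases Gm7336 did not differ from Gapdh, and Gm5559 and Gm13394 differed at 1 base each, the base shown. Gm7336 lies on chromosome 7 (51396395 to 51397626, plus strand), Gm5559 on chromosome 5 (96009573 to 96010574, plus strand) and Gm13394 on chromosome 2 (28823622 to 28824621, minus strand). Over the 20 libraries Gapdh was given 15886 reads, Gm5559 7347, Gm13394 1857 and Gm7336 790. How the authors' counting treated reads that match several places is not given in the sources used here. Counts of Gapdh and of its copies are therefore uncertain, and the same holds to a lesser degree for other members. The share of 50-base windows found in another gene was 72.2% for Eno1, 68.0% for Pgk1, 34.4% for Pkm, 16.6% for Ldha, 13.5% for Aldoa and 7.51% for Tpi1. It was 0.0543% for Pfkl and 0% for Hk2 and Slc2a1.

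The remaining genes lie on chromosomes 4, 6, 7, 9, 10 and X. Slc2a1 (118965908 to 118995180) and Eno1 (150321178 to 150333336) are on chromosome 4, both on the plus strand. Hk2 (82702006 to 82751435) and Tpi1 (124787549 to 124791259) are on chromosome 6, both on the minus strand, so 3 members share that chromosome with Gapdh included. Aldoa (126394406 to 126399923, minus strand) and Ldha (46490899 to 46505051, plus strand) are on chromosome 7, Pkm on chromosome 9 (59563651 to 59586658, plus strand), Pfkl on chromosome 10 (77822781 to 77845917, minus strand) and Pgk1 on the X chromosome (105230706 to 105247305, plus strand). Whether the libraries keep strand is not settled by the labels, so reads in stretches shared with a gene on the other strand cannot be placed for certain. Such stretches cover 68 bases of Gapdh (with Iffo1), 34 of Tpi1 (Spsb2), 3007 of Hk2 (Gm17034), 3084 of Aldoa (Tlcd3b) and 4235 and 710 of Slc2a1 (Gm12868 and Gm12867), introns included. Pkm shares 3887 bases with Gm49759 and Slc2a1 66 bases with Mir1957a on the same strand, where strand would not separate the reads. The other row named Aldoa held 9 to 66 reads per library and is not described further.

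Many glycolysis genes are known targets of the hypoxia-inducible factors (HIF), whose core binding motif is ACGTG, or CACGT when read on the other strand. In the RefSeq promoters (GRCm38.p6), which span 250 bases before to 50 bases after each gene start, the motif was in 8 of the members' 16 promoters, against 19.6% of all 32851 promoters. These 8 belong to 7 of the 10 members. The matching promoters of Aldoa, at 126799129 to 126799428 and 126799205 to 126799504, overlap and may hold the same match. The share of all genes with a match in any of their promoters was not counted. A promoter of Ldha held 5 matches, Hk2, Pgk1 and Pkm 2 each, and none of the promoters of Eno1, Tpi1 and Pfkl held one. The Hk2 promoter is shown because Hk2 had the largest called difference, with the matches in capitals (GRCm38.p6, chr6:82774405-82774704, minus strand). Matches were counted on both strands, so a site that reads CACGTG is counted on each. A match is a string of letters and is not evidence of binding.
Hk2: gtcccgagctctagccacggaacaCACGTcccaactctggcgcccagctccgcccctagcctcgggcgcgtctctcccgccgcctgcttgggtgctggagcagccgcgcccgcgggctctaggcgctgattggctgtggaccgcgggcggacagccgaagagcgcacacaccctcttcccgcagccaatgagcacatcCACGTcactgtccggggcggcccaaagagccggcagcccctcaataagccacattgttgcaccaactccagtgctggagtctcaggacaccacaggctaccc

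Gapdh was the least abundant of the 10 transcripts by its deposited count. Levels are compared between genes as CPM per kilobase, using the gene lengths in the deposited tables. For Gapdh this is 4133 bases, while its longest protein-coding transcript has 1420. Ldha averaged 318 CPM per kb over the 20 libraries (229.8 to 501), and Aldoa 287 CPM per kb (225 to 352). Pkm averaged 193 (129 to 249), Tpi1 175 (150.1 to 219) and Pgk1 165 CPM per kb (118 to 207). The ranges of these neighbours overlapped, and Ldha was the highest member in 12 libraries and Aldoa in the other 8.

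Eno1 averaged 99.8 CPM per kb (62.2 to 146). The genes that act at the entry of the pathway were lower, with Slc2a1 at 44.0 (23.6 to 76.3), Hk2 at 43.1 (11.9 to 76.2) and Pfkl at 29.4 CPM per kb (20.8 to 46.6), again with overlapping ranges. Gapdh averaged 7.16 CPM per kb (3.56 to 33.4) and was the lowest member in 19 of 20 libraries. The mean of Ldha was 44.4 times that of Gapdh. Both the place of Gapdh and this fold rest on the deposited gene lengths and on a Gapdh count that its copies make uncertain. They do not settle how abundant its transcript was. Gapdh also varied most, with its highest library at 9.36 times its lowest, against 6.39 times for Hk2, 3.24 times for Slc2a1 and 1.46 to 2.35 times for the other 7. This spread came from HFD Vill 1 and HFD ff 2, at 33.4 and 19.1 CPM per kb. In all other libraries Gapdh lay between 3.56 and 7.27 CPM per kb.

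**Figure D1:**
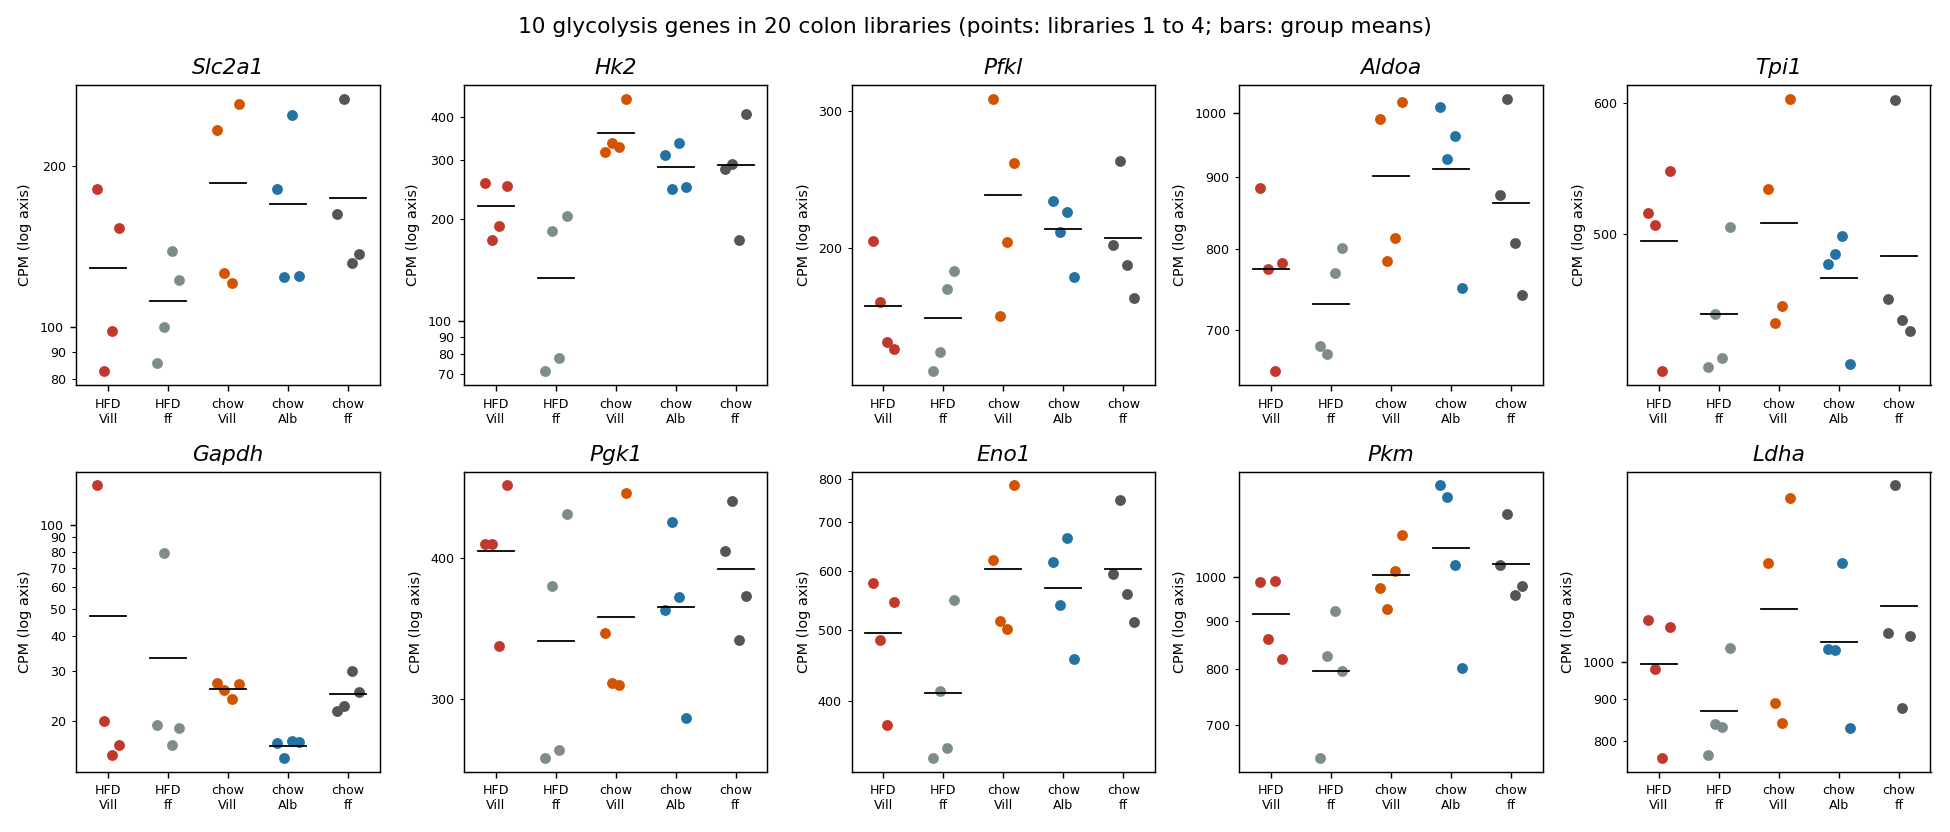
CPM (log axis, a separate scale for each gene) of the 10 genes in 20 colon libraries, by group. Points are libraries 1 to 4 and bars are group means. Gapdh spans 14.7 to 30.0 CPM on chow, where all 4 Alb libraries (14.7 to 17.0 CPM) lie below all 8 Vill and ff libraries (21.6 to 30.0 CPM). In each HFD group 1 library is far above the rest (138 and 78.9 CPM).

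Some of the 10 enzymes have isoenzymes, and in most cases the listed member was the higher one per length. Among the hexokinases given here, Hk2 averaged 43.1, Hk1 28.0, Hkdc1 7.38 and Hk3 0.251 CPM per kb. Pfkl averaged 29.4 CPM per kb, beside 20.9 for the platelet type Pfkp and 5.22 for the muscle type Pfkm. Aldoa stood at 287 CPM per kb, beside 4.18 for Aldoc.

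Enolase was less one-sided. Eno1 averaged 99.8 CPM per kb, while the muscle enolase Eno3 averaged 71.1 with a range of 6.44 to 183, and the neuronal Eno2 averaged 1.89. Pkm stood at 193 CPM per kb beside 22.0 for Pklr, the liver and red cell type, and Ldha at 318 beside 10.5 for Ldhb. Slc2a1 averaged 44.0 CPM per kb, close to the sodium-glucose cotransporter gene Slc5a1 at 45.1, whereas Slc2a3, Slc2a5 and Slc2a2 averaged 0.828, 0.991 and 0.0187.

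On chow, deleting Pcca in the intestinal epithelium left no member past the test. By the fitted value 7 of 10 members were higher and 3 lower in Vill than in ff colons, with a median log2 fold change of 0.06 and a range of -0.14 (Pgk1) to 0.31 (Hk2). None of the 10 was called by edgeR's quasi-likelihood test at an adjusted p under 0.05, where 0.00508% of the 19701 tested genes were called, and none had an unadjusted p under 0.05. DESeq2 and limma-voom also called none of the 10. No member separated the groups of 4 in CPM, which 1.35% of genes did, 0.665% as higher and 0.68% as lower.

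Hk2, which traps glucose in the cell, measured 317, 337, 327 and 455 CPM in chow Vill libraries, against 283, 292, 174 and 409 CPM in chow ff libraries. The groups overlapped, since chow ff 4 lay above 3 of the Vill libraries. The log2 fold change was 0.31 (95% interval -0.18 to 0.79, edgeR adjusted p = 1.00, exact permutation p = 0.286, 2-sided, n = 4 each). With 70 ways to assign 4 and 4 libraries, the smallest p this permutation test can give is 0.0286.

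Gapdh measured 27.3, 25.8, 23.9 and 27.1 CPM in chow Vill libraries, against 21.6, 22.6, 30.0 and 25.3 CPM in chow ff libraries. The means were 26.0 ± 1.57 CPM in Vill and 24.9 ± 3.79 CPM in ff (SD, n = 4 each). The groups overlapped, with a log2 fold change of 0.06 (-0.20 to 0.32, edgeR adjusted p = 1.00). Smooth muscle markers, 10 of 10, were lower in Vill than in ff by the fitted value without passing the test (median log2 -0.49), at a summed 1268 to 7782 CPM in Vill and 4658 to 9846 CPM in ff, and their part in the members' values was not tested.

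In the colons of Alb mice, whose Pcca was deleted in the liver, Gapdh read 16.7, 14.7, 17.0 and 16.9 CPM, a mean of 16.3 ± 1.07 CPM (SD, n = 4). Every Alb library lay below every chow ff and every chow Vill library. The fitted log2 difference was -0.62 (SE 0.12) for Alb against ff and 0.68 (SE 0.12) for Vill against Alb. The 2 comparisons share the Alb libraries, and Gapdh was chosen from them. The authors' deposited table gives -0.62 and 0.67 for the same comparisons.

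The other 9 members did not show this pattern. Their log2 fold changes ran between -0.16 (Ldha) and 0.07 (Aldoa) for Alb against ff, and between -0.08 (Pkm) and 0.35 (Hk2) for Vill against Alb. Over all 10 members the medians were -0.05 and 0.13. None of these 9 was called by edgeR in either comparison, where 0% of genes were called for Alb against ff and 0.00508% for Vill against Alb, none had an unadjusted p under 0.05, and DESeq2 and limma-voom called none of them. The groups of all 9 overlapped, while those of Gapdh, by which it was chosen, did not. Groups did not overlap for 2.82% of all genes in Alb against ff (1.23% higher, 1.59% lower) and for 4.71% in Vill against Alb (2.59% higher, 2.12% lower), and nothing is read from this for Gapdh.

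Markers of several cell types differed in the same direction as Gapdh, or in the opposite one, in the comparisons with Alb. The 10 markers of dividing cells, among them Mki67, Top2a and Plk1, had a summed level of 253 to 429 CPM in Alb libraries, against 464 to 674 CPM in chow Vill and 416 to 698 CPM in chow ff libraries. All 10 were lower in Alb than in ff (median log2 -0.67) and all 10 higher in Vill than in Alb (median 0.79) by the fitted value. None passed the test adjusted over all genes, and 8 and 9 of them had an unadjusted p under 0.05. Of all 19701 tested genes, 867 had such a p for Alb against ff and 1748 for Vill against Alb. None of the 10 markers was at 0 in any library. Goblet cell markers and B and plasma cell markers also ran with Gapdh. Of the goblet cell markers, 8 of 8 were lower in Alb than in ff (median log2 -0.44) and 7 of 8 higher in Vill than in Alb (0.22). Of the B and plasma cell markers, 8 of 8 were lower (-0.61) and 8 of 8 higher (0.36), none of either list passing the test. Smooth muscle markers ran the other way, with 10 of 10 higher in Alb than in ff (median log2 0.37) and 10 of 10 lower in Vill than in Alb (-0.83), at a summed 5206 to 13499 CPM in Alb libraries. Neuron and glia markers did so too, with 9 of 10 higher in Alb than in ff (0.51) and 9 of 10 lower in Vill than in Alb (-0.86), none of either list passing the test. Chow Alb 2, the library with the lowest Gapdh, held 103 CPM of squamous epithelium markers, against 2.27 to 9.78 CPM in the other 19 libraries, and without it the log2 difference of Gapdh was -0.58 for Alb against ff and 0.62 for Vill against Alb. The part of these cell types in the Gapdh difference was not tested.

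**Figure D2:**
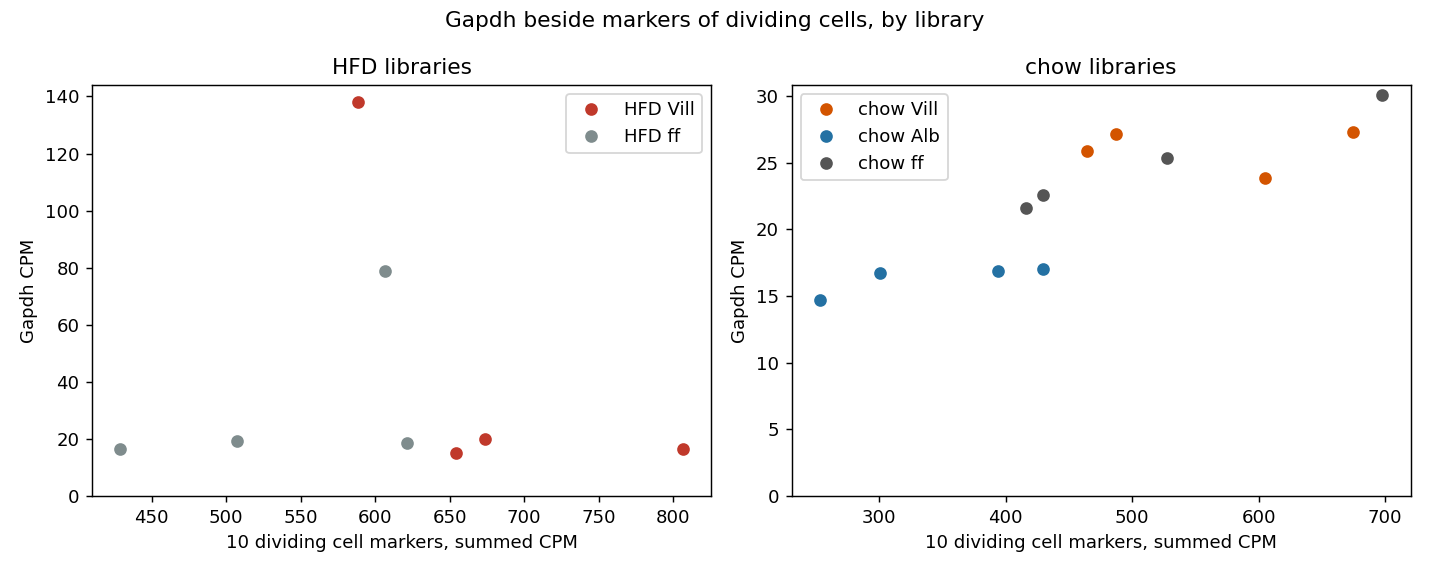
Gapdh (CPM) against the summed CPM of 10 markers of dividing cells, 1 point per library, HFD libraries on the left and chow libraries on the right with separate axes. On chow the Alb libraries lie at the low end of both axes, and on HFD the 2 libraries with high Gapdh (138 and 78.9 CPM) lie in the middle of the marker range (588 and 607 CPM).

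On chow the reads given to the copies of Gapdh overlapped between the groups, while those of Gapdh itself were lowest in every Alb library. The 70 reference copies, all listed in the chow table, took 999 to 1447 reads in Alb libraries, 1151 to 1578 in chow Vill and 1180 to 1267 in chow ff libraries. Gapdh itself took 453 to 566 reads in Alb, 700 to 1038 in chow Vill and 699 to 1039 in chow ff libraries. These reads are not scaled for depth. The copies thus held 2.04 to 2.56 reads for each Gapdh read in Alb libraries, 1.42 to 1.64 in chow Vill and 1.16 to 1.79 in chow ff libraries. Gapdh was chosen by its level in Alb, so this ratio is high there by that choice. With copies and Gapdh summed into 1 feature, the log2 difference was -0.21 for Alb against ff and 0.31 for Vill against Alb.

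**Figure D3:**
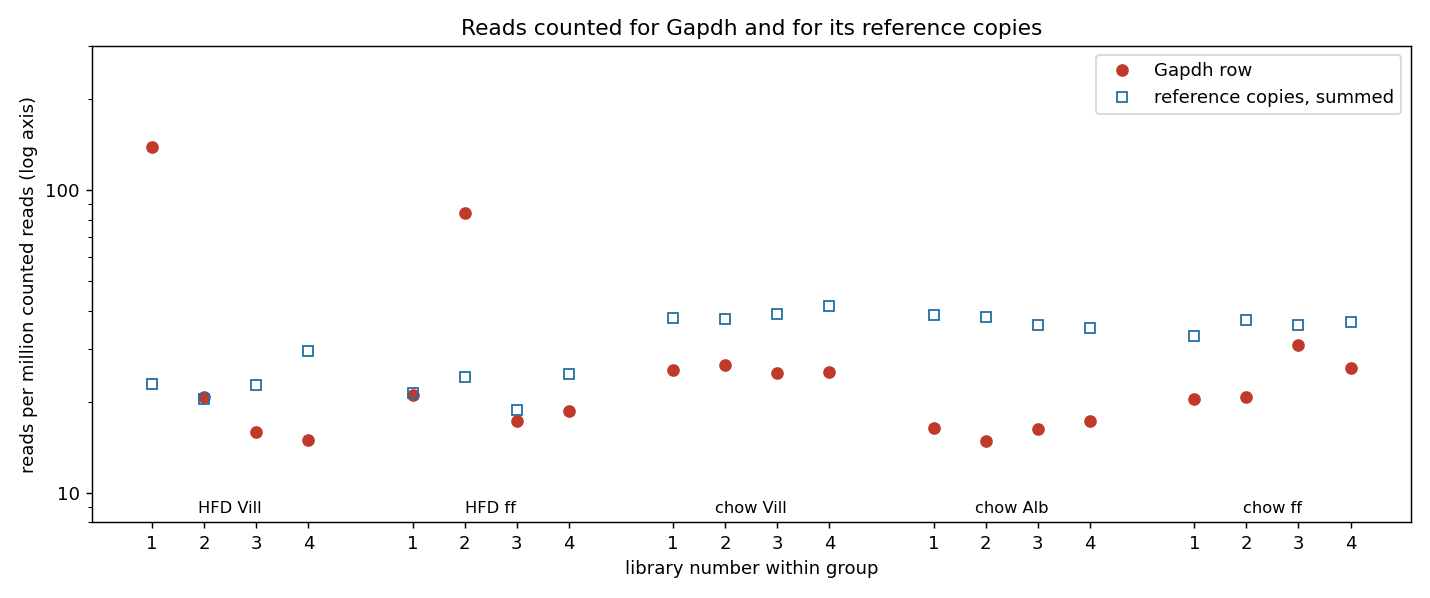
CPM by library total, without TMM (log axis), given to Gapdh (filled circles) and to its reference copies together (open squares) in each library; 70 copies are listed in the chow table and 45 of them in the HFD table. The copies outnumber Gapdh in all 12 chow libraries, and Gapdh outnumbers them clearly in HFD Vill 1 (2609 against 430 reads) and HFD ff 2 (2057 against 589 reads).

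On HFD, all 10 members were higher in Vill than in ff colons by the fitted value, and none passed the test. The median log2 fold change was 0.20, with a range of 0.05 (Pfkl) to 0.70 (Hk2), beside a median of -0.00 over all genes tested. edgeR called none of the 10 at an adjusted p under 0.05, where 0.00564% of the 17715 tested genes were called, and none had an unadjusted p under 0.05. DESeq2 and limma-voom called none. No member separated the groups of 4, which 2.13% of genes did, 1.22% as higher and 0.909% as lower. Without the libraries labelled HFD ff 1 and 3, 8 of 10 members were higher, with a median of 0.07 and none called.

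Gapdh measured 138, 19.9, 15.2 and 16.4 CPM in HFD Vill libraries, against 19.3, 78.9, 16.5 and 18.8 CPM in HFD ff libraries. Vill 1 and ff 2 stood far above the other 6, which lay between 15.2 and 19.9 CPM. The log2 fold change was 0.51 with a wide interval of -1.40 to 2.42 (edgeR adjusted p = 0.955, exact permutation p = 0.886, 2-sided, n = 4 each). It was -0.96 without HFD Vill 1, 1.38 without HFD ff 2 and -0.09 without both.

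The other members did not stand as far out in the 2 libraries with high Gapdh. HFD Vill 1 was also the highest of its group for 6 other members, but by less: Hk2 was 257 CPM there beside 174 to 251 CPM, Pfkl 204 beside 149 to 170.4 CPM and Ldha 1128 beside 761 to 1108 CPM. HFD ff 2 was the highest of its group for none of the other 9, with Hk2 at 184 CPM beside 71.1 to 204 CPM. Their dividing cell markers summed to 588 and 607 CPM, inside the HFD range of 429 to 807 CPM. The share of the members' summed CPM per kb taken by Gapdh was 2.26% in HFD Vill 1 and 1.65% in HFD ff 2, against 0.245 to 0.580% in the other 18 libraries. The copies of Gapdh took 430 and 589 reads in these libraries, inside the 317 to 711 reads of the other 6 HFD libraries.

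Hk2 showed the largest fitted difference on HFD, and it rested on 2 libraries labelled ff. Hk2 measured 257, 174, 192 and 251 CPM in HFD Vill libraries, against 71.1, 184, 77.8 and 204 CPM in HFD ff libraries. The low libraries, those labelled ff 1 and ff 3, are those with small intestine genes and low Pcca: Sis stood at 57.7 and 74.3 CPM there, against 0.423 to 1.96 CPM in the other 6 HFD libraries. The log2 fold change was 0.70 (-0.10 to 1.49, edgeR adjusted p = 0.932, exact permutation p = 0.143, 2-sided, n = 4 each), and 0.17 without the libraries labelled HFD ff 1 and 3. The part of the small intestine genes in the difference was not tested.

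Hkdc1, a further hexokinase gene, ran the other way in the same libraries. It measured 19.1, 7.40, 4.64 and 7.64 CPM in HFD Vill libraries, against 129, 4.34, 214 and 10.8 CPM in HFD ff libraries. The log2 fold change was -3.22 (SE 1.12, edgeR adjusted p = 0.932), and it turned to 0.36 (SE 0.61) without the libraries labelled HFD ff 1 and 3. Of the genes around the pathway, the next largest fitted folds on HFD were those of Pdk4 (-1.47), Slc2a5 (-1.29), Slc2a4 (-1.13), Eno3 (0.77) and Slc2a3 (-0.76), none of which passed the test. Without these 2 libraries they were -0.45 for Pdk4, -0.61 for Slc2a5, 0.20 for Slc2a4, -0.01 for Eno3 and 0.10 for Slc2a3. On chow, Hkdc1 was 115 CPM in chow Vill 1 and 113 CPM in chow ff 2, the chow libraries with Sis at 60.6 and 33.6 CPM. It was 43.9 and 59.5 CPM in chow Alb 1 and 3, where Sis was 0.215 and 0.375 CPM. Sis does not stand for the whole list of 10 small intestine markers there. Their sum was 523 and 763 CPM in chow Alb 1 and 3, beside 978 and 1108 CPM in chow Vill 1 and chow ff 2. In chow Vill 4 it was 571 CPM, with Hkdc1 at 7.67 CPM, and in the remaining chow libraries 34.7 to 214 CPM. In chow Vill 1 and chow ff 2 Hk2 was not low, at 317 and 292 CPM.

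**Figure D4:**
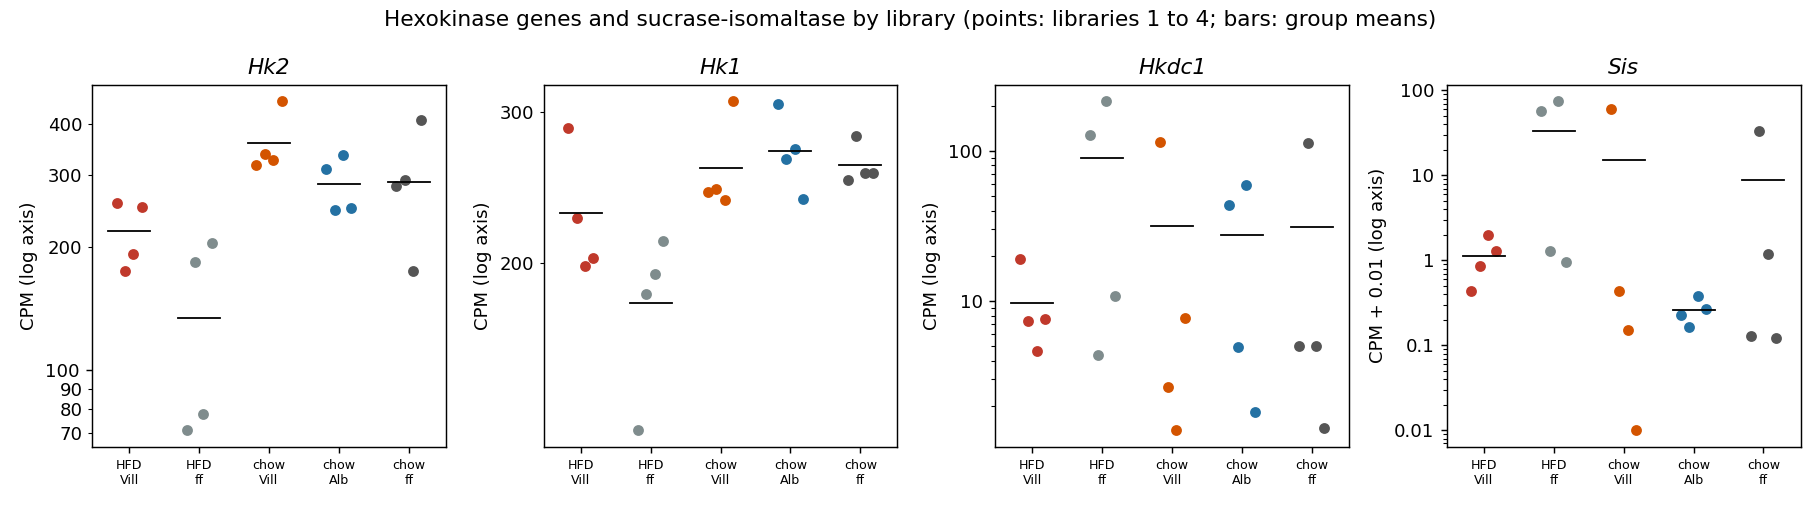
CPM (log axes) of the hexokinase genes Hk2, Hk1 and Hkdc1 and of Sis, a small intestine gene (plotted as CPM + 0.01), in 20 libraries by group. Bars are group means. The libraries labelled HFD ff 1 and 3 are lowest for Hk2 (71.1 and 77.8 CPM) and highest for Hkdc1 (129 and 214 CPM) and, with chow Vill 1, for Sis.

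The Vill effect on HFD was larger than that on chow for 9 of 10 members by the fitted value, with a median difference of 0.22 on the log2 scale. The largest differences were 0.45 for Gapdh, 0.41 for Pgk1 and 0.39 for Hk2, and Pfkl stood at -0.13. Without the libraries labelled HFD ff 1 and 3 the effect was larger on HFD for 6 of 10, with a median of 0.02. edgeR called none of the 10, where 0% of 19516 genes were called, and none had an unadjusted p under 0.05; DESeq2 and limma-voom called none. The 95% interval for Pgk1, which makes ATP, was -0.12 to 0.93 and held 0.

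Between HFD and chow, over ff and Vill mice together, 3 of 10 members fell and none rose. edgeR called 26.6% of 19516 genes in this comparison, 12.5% as higher and 14.1% as lower, so the members' share is near the background. By the fitted value 9 of the 10 were lower on HFD, with a median log2 of -0.29, beside -0.02 over all genes tested. The split of called genes, 2439 higher and 2744 lower, became 2780 and 2089 with library totals and 2873 and 2363 with upper quartile scaling, while Hk2, Pfkl and Eno1 stayed called and lower under both. Levels here are set across 2 tables that were deposited separately.

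Hk2 fell to 257, 174, 192 and 251 CPM in HFD Vill and 71.1, 184, 77.8 and 204 CPM in HFD ff, against 317, 337, 327 and 455 CPM in chow Vill and 283, 292, 174 and 409 CPM in chow ff. All 8 HFD libraries lay below 7 of the 8 chow libraries, and only chow ff 3, at 174 CPM, overlapped with them. The log2 fold change was -0.91 (SE 0.23, -1.40 to -0.42, edgeR adjusted p = 0.00938), or 0.533 times the chow level. It was called in all 16 fits that left out 1 library, and it was -0.64 (adjusted p = 0.0219) without the libraries labelled HFD ff 1 and 3.

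Pfkl measured 204, 170.4, 152 and 149 CPM in HFD Vill and 139, 147, 177 and 187 CPM in HFD ff, against 311, 164, 204 and 257 CPM in chow Vill and 202, 259, 190.5 and 173 CPM in chow ff. The diets overlapped, with a log2 fold change of -0.40 (SE 0.13, edgeR adjusted p = 0.0369). The call was lost in 9 of 16 fits that left out 1 library, with an adjusted p of at most 0.0744.

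Eno1 measured 578, 484, 371 and 545 CPM in HFD Vill and 335, 412, 346 and 548 CPM in HFD ff, against 621, 513, 501 and 785 CPM in chow Vill and 594, 749, 559 and 512 CPM in chow ff. The diets overlapped. Its log2 fold change was -0.42 (SE 0.14, edgeR adjusted p = 0.0369). This call too was lost in 9 of 16 fits that left out 1 library, with an adjusted p of at most 0.0792. It was also lost without the libraries labelled HFD ff 1 and 3 (log2 -0.30, adjusted p = 0.156), as was that of Pfkl (-0.37, adjusted p = 0.0923). In both genes HFD Vill 2 and 3, HFD ff 1 and 2, chow Vill 1 and 4 and chow ff 1 and 2 were among the libraries whose removal ended the call, with HFD Vill 4 for Pfkl and HFD ff 3 for Eno1.

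A further 6 members did not pass the test between diets and are given with their edgeR adjusted p. Slc2a1 stood at -0.58 on the log2 scale (-1.05 to -0.11, adjusted p = 0.0639), Ldha at -0.33 (-0.67 to 0.02, 0.154), Pkm at -0.25 (-0.44 to -0.05, 0.0552) and Aldoa at -0.22 (-0.43 to -0.02, 0.102). DESeq2 called 5 members, Slc2a1 and Pkm beside the 3, and limma-voom 4, Pkm beside the 3. Tpi1 (-0.07, -0.28 to 0.13) and Pgk1 (-0.00, -0.27 to 0.26) had intervals on both sides of 0.

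Gapdh went with 2 libraries in this comparison. Its log2 fold change was 0.65 (-0.34 to 1.63, edgeR adjusted p = 0.328) over all 16 libraries, -0.09 without HFD Vill 1, and 0.22 without HFD ff 2. Without both it was -0.52, and the remaining 6 HFD libraries, at 15.2 to 19.9 CPM, lay below the 8 chow Vill and ff libraries at 21.6 to 30.0 CPM. With the reads of Gapdh and its reference copies summed, the log2 fold change over all 16 libraries was 0.01. The choice of these 2 libraries was made after their Gapdh values were seen. Leaving out the 2 highest HFD values lowers the HFD side by that choice, so no p is given for it. The share of all genes that separate in this way was not counted, and nothing is read from the separation.

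**Figure D5:**
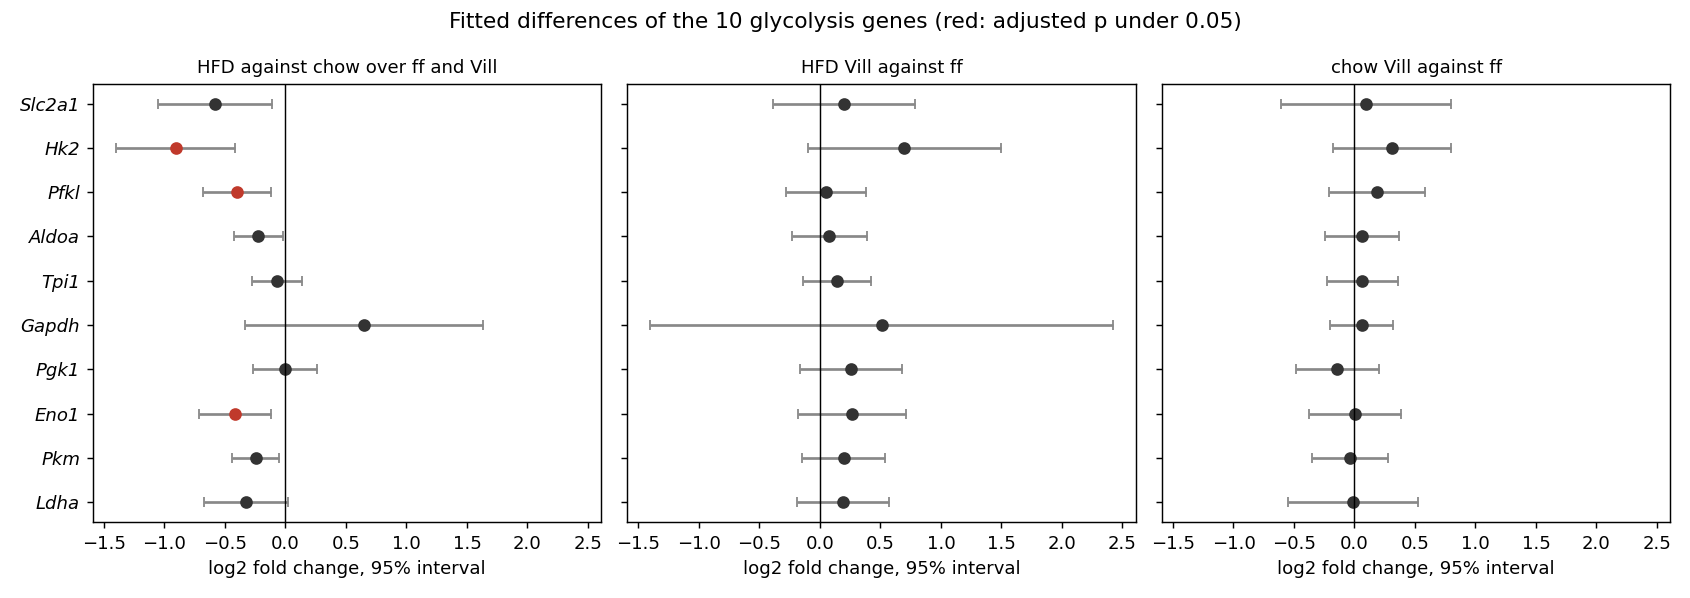
Fitted log2 fold changes with 95% intervals for the 10 genes in 3 comparisons (edgeR). Red points are Hk2, Pfkl and Eno1 between HFD and chow, the 3 called at an adjusted p under 0.05; the interval of Gapdh on HFD, -1.40 to 2.42, is the widest.

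Genes around the pathway were counted in 5 lists, and none was called by edgeR in any Vill or Alb comparison. The largest fitted folds on chow were -0.70 for Slc2a4 in Vill against ff, -1.10 for Ak4 in Alb against ff and -1.16 for Slc2a4 in Vill against Alb. In the HFD to chow comparison 3 of 19 tested other glycolysis enzymes fell and none rose. These were Hk1 (log2 -0.35, SE 0.11, adjusted p = 0.0293), Gpi1, the isomerase between the hexokinase and phosphofructokinase steps (-0.40, SE 0.14, 0.0468), and Hk3 (-1.81, SE 0.38, 0.00304), the last at a mean of only 0.885 CPM. Hk1 measured 287, 225, 199 and 203 CPM in HFD Vill and 128, 184, 194 and 212 CPM in HFD ff, against 242, 244, 237 and 309 CPM in chow Vill and 249.9, 281, 255 and 255 CPM in chow ff. The library labelled HFD ff 1 was the lowest for both Hk1 and Hk2. Without the libraries labelled HFD ff 1 and 3 the calls of Hk1 (-0.27, adjusted p = 0.0747) and Gpi1 (-0.43, 0.0713) were lost.

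Among 19 regulators, 3 rose and 4 fell, with all changes on the log2 scale. Pdha1 and Pdhb, subunits of the pyruvate dehydrogenase that feeds pyruvate into the citric acid cycle, rose by 0.40 (SE 0.06, edgeR adjusted p = 0.000400) and 0.22 (SE 0.05, 0.00691), while Pdk2, a kinase that inhibits this enzyme, fell by 0.70 (SE 0.13, 0.00111). The Pfkfb genes, which set the level of the phosphofructokinase activator fructose 2,6-bisphosphate, moved in both directions. Pfkfb3 fell by 1.07 (SE 0.22, 0.00275) and Pfkfb4 by 0.72 (SE 0.12, 0.000491), and Pfkfb2 rose by 0.29 (SE 0.08, 0.0127). Mlxip fell by 0.23 (SE 0.07, 0.0246), a call lost without the libraries labelled HFD ff 1 and 3 (-0.22, adjusted p = 0.0706).

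Of 12 tested sugar and lactate transport genes 1 rose and 1 fell, again on the log2 scale. Mpc1, a subunit of the mitochondrial pyruvate carrier, rose by 0.99 (SE 0.12, edgeR adjusted p = 7.71e-05), at 17.0, 18.2, 21.9 and 24.2 CPM in HFD Vill and 25.9, 21.4, 23.7 and 17.6 CPM in HFD ff, against 11.4, 11.5, 12.1 and 8.02 CPM in chow Vill and 13.3, 10.8, 8.33 and 10.6 CPM in chow ff. Its diets did not overlap, but the share of all genes that did so was not counted, so nothing is read from this. Slc2a8, an intracellular glucose transporter, fell by 0.90 (SE 0.13, 0.000282).

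Of 9 tested genes of gluconeogenesis and fructose handling, 3 fell: Pck1 and Pck2, the phosphoenolpyruvate carboxykinases (log2 -0.85, SE 0.17, edgeR adjusted p = 0.00195, and -0.33, SE 0.09, 0.0161), and Pcx, pyruvate carboxylase (-1.05, SE 0.29, 0.0163). Of 18 HIF target genes outside glycolysis 1 rose and 3 fell. On the log2 scale Adm, which encodes the vasodilator adrenomedullin, fell by 1.35 (SE 0.30, 0.00439), Egln3, a HIF prolyl hydroxylase, by 1.01 (SE 0.27, 0.0136), and Pfkfb3 is on this list too, while Ankrd37 rose by 0.78 (SE 0.24, 0.0275). The calls of Egln3 (-0.82, adjusted p = 0.0652) and Ankrd37 (0.52, 0.117) were lost without the libraries labelled HFD ff 1 and 3, and Pcx then stood at -0.74 (0.0191). Called in either direction were thus 3 of 19, 7 of 19, 2 of 12, 3 of 9 and 4 of 18 genes of the 5 lists in this order, beside 26.6% of all genes, and without the libraries labelled HFD ff 1 and 3 they were 1 of 19, 7 of 19, 3 of 13, 3 of 9 and 3 of 18. Called without these 2 libraries but not with them were Dlat (log2 0.24, edgeR adjusted p = 0.0378), Ddit4 (0.40, 0.0284) and Slc2a4 (-1.21, 0.0335).

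Other cell types differed between the diets as well. Macrophage markers, 7 of 8 called as lower, had a summed level of 44.1 to 66.3 CPM in HFD Vill and 52.9 to 60.6 CPM in HFD ff libraries, against 67.0 to 147 CPM in chow Vill and 112 to 197 CPM in chow ff libraries. Colonocyte markers, 3 of 9 called as lower, summed to 3307 to 7050 CPM in HFD Vill and 3591 to 9175 CPM in HFD ff, against 7445 to 13156 CPM in chow Vill and 6123 to 9514 CPM in chow ff. Fibroblast markers, 4 of 8 called as lower, summed to 307 to 670.5 CPM in HFD Vill and 410.3 to 636 CPM in HFD ff, against 643 to 1009.96 CPM in chow Vill and 814 to 1178 CPM in chow ff. Goblet cell markers had 3 of 8 called as lower (median log2 -0.89) and adipocyte markers 2 of 7 (-2.78), beside 14.1% of all genes called as lower. Without the libraries labelled HFD ff 1 and 3 these were 2 of 8 (-0.52) and 1 of 7 (-2.90). Dividing cell markers ran the other way, with 10 of 10 higher on HFD by the fitted value (median log2 0.14). Of these 1 was called, and 2 without the same libraries, beside 12.5% of all genes called as higher. The part of these cell types in the fall of Hk2, Pfkl and Eno1 was not tested.

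The members other than Gapdh moved together between libraries. Over 20 libraries, each centred on its diet, the median Pearson correlation of log2 CPM among the 36 pairs of the other 9 members was 0.65 (0.22 to 0.93), and that of Gapdh with each of them was 0.17 (0.09 to 0.33). The libraries share scaling and depth within a diet, so these values describe the data and carry no p. No such value was computed for pairs of other genes, so it is not read as particular to these members. The part of cell type differences between libraries was not tested. Among 14038 genes Nup62, a nuclear pore gene, was most like Gapdh (r = 0.72, rho = 0.61), followed by Gm19391 (0.65), Scarb1 (0.62), Fbrs (0.61) and 9230112E08Rik (0.61). Without HFD Vill 1 and HFD ff 2, the libraries whose Gapdh lies farthest from the median, r was 0.58 for Nup62 and 0.32 to 0.55 for the other 4. The closest member was Hk2, in place 695.

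Within the 12 chow libraries alone the genes most like Gapdh were different ones: Diaph3 (r = 0.92, rho = 0.92), Prc1 (0.92, 0.95), Depdc1a (0.91, 0.95), Sgo1 (0.91, 0.92) and Tinf2 (0.91, 0.91) among 14107 genes. Prc1 and Sgo1 are known for roles in cell division, at the spindle midzone and at the centromere. Without Alb 1 and 2, whose Gapdh lies farthest from the chow median, r was 0.84 to 0.88 for these 5, with Alb 3 and 4 still included. The values were not centred on groups, and Gapdh was chosen by its level in Alb. Genes that differ in Alb in the same direction therefore rank high by that choice, and nothing is read from this ranking about cell division. The closest member in this ranking was Eno1, in place 5049 (r = 0.15). In the 8 HFD libraries the ranking follows the 2 libraries with high Gapdh, so no correlation is given. BC064078, the pseudogene that headed it, stood at 8.51 CPM in HFD Vill 1 and 13.0 CPM in HFD ff 2 and at 0.103 to 0.961 CPM in the other 6 HFD libraries. It lies on chromosome 6 at 3.83 Mb from Gapdh. On chow it was also high in some libraries, at 7.90 to 13.4 CPM in chow Vill 2, chow Alb 2, 3 and 4 and chow ff 1 and 3, and at 0.131 to 0.968 CPM in the other 6, while Gapdh ran from 14.7 to 30.0 CPM in the 6 libraries where it was high and from 16.7 to 27.3 CPM in the others.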

How the data were processed

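Poly-A RNA of 20 colon libraries was sequenced. The deposited files give raw counts of reads for each gene (per the file headers), together with gene lengths, coordinates and the authors' comparison columns (log2 fold changes and p-values), which were read only for the authors' deposited table quoted above. A further 28 per-sample columns were not used. Reads were handled with HISAT2 2.0.5, and with featureCounts 1.5.0-p3, on the mm39 build, and the tools listed also include edgeR 3.22.5 and DESeq2 1.20.0, per the submitters' processing notes. The annotation release and the handling of reads that match several places are not given in the sources used here.

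From the deposited counts, CPM were computed with TMM scaling over the 20 libraries on the 31184 genes in both tables. Tests used edgeR 4.0.16 in R 4.3.3 (quasi-likelihood F test, TMM, default expression filter) in a fit of 12 chow libraries, a fit of 8 HFD libraries and a fit of 16 libraries (ff and Vill on both diets), with Benjamini-Hochberg adjustment over all tested genes and calls at an adjusted p under 0.05. All 10 members passed the filter. Alternatives used DESeq2 1.42.0, limma 3.58.1, other scalings and filters, a replicate block and libraries left out, and each edgeR comparison was tested on simulated data. Replicates are those of the labels, which give no animal identity, so p-values measure the spread between these libraries. The members and lists were chosen with earlier results of these data known. Genes around the pathway were named by rule: up to 12 called genes by smallest p, or, with fewer than 6 called, those with the largest fold among genes at a mean of 2 CPM or more. Hk1, Gpi1, Mlxip, Pck2, Pcx and Ankrd37 fell outside it and were named after their values were seen. Sequences came from GENCODE M21 transcripts and RefSeq promoters (GRCm38.p6), and log2 CPM for likeness used a prior count of 2 and genes at a mean of 2 CPM or more.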

Additional observations from a re-analysis of the deposited data

Results flagged for a closer look

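In 55 sets of 4 libraries (each gene row in each group) the highest or lowest library was set against the other 3 by Dixon's ratio, which chance alone would pass in about 1 set in 20. Of these, 5 stood apart, and 3 of these were values of Gapdh. Gapdh was 138 CPM in HFD Vill 1 against 15.2 to 19.9 CPM in the other 3, and 78.9 CPM in HFD ff 2 against 16.5 to 19.3 CPM. In chow Alb 2 it was 14.7 CPM against 16.7 to 17.0 CPM. Hk2 was 455 CPM in chow Vill 4 against 317 to 337 CPM, and Tpi1 was 603 CPM in chow ff 2 against 437 to 457 CPM. What sets these libraries apart was not tested.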

How the results depend on the processing

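None of the 10 members was called under any alternative run for Vill against ff on chow, on HFD, or for the difference of the Vill effects. Over all genes edgeR called 1 for chow Vill against ff, 0 for Alb against ff, 1 for Vill against Alb and 1 for HFD Vill against ff. DESeq2 called 3 for chow Vill against ff, 11 for Alb against ff, 90 for Vill against Alb and 2 for HFD Vill against ff; leaving out the low count filter gave 2 for chow Vill against ff, leaving out HFD ff 1 and 3 gave 2 on HFD, and the replicate block gave 0 for chow Vill against ff and 0 for Vill against Alb. With the replicate block, HFD against chow kept 5004 calls, Hk2 and Eno1 among them, and Pfkl was lost (adjusted p = 0.0587). No group pair had all 4 same-numbered correlations over 0.1. They ran from -0.72 (chow Vill and Alb 3) to 0.64 (chow Alb and ff 4). Whether libraries of the same number share more than that number is not settled. Leaving out 1 library at a time did not move these 4 counts and gave 4248 to 5084 calls between diets, against 5183. Hk2 between diets was called under every alternative run. The causes of these changes were not tested. The call of Eno1 was lost without HFD Vill 1 and HFD ff 2 (-0.46, adjusted p = 0.0512). Alternatives without HFD Vill 1 and HFD ff 2, with Gapdh's reference copies, for genes around the pathway without HFD ff 1 and 3, and for likeness within a diet or without 2 libraries were chosen after seeing the data.

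The directions that turned were those of values that had not passed the test. For chow Vill against ff the log2 values were, with DESeq2 Eno1 -0.00058, with RLE scaling Eno1 -0.00055, with upper quartile scaling Eno1 -0.0059, with limma-voom Eno1 -0.00064. For HFD Vill against ff the log2 values were, with library totals Pfkl -0.0027, without the HFD ff libraries 1 and 3 Gapdh -0.030 and Pgk1 -0.0026, without the libraries HFD Vill 1 and HFD ff 2 Aldoa -0.038 and Gapdh -0.093 and Pfkl -0.11 and Slc2a1 -0.074. For the difference of the Vill effects the log2 values were, with library totals Aldoa -0.050, with upper quartile scaling Aldoa -0.0070, with limma-voom Gapdh -0.035, without the HFD ff libraries 1 and 3 Gapdh -0.094 and Hk2 -0.14 and Tpi1 -0.0072, without the libraries HFD Vill 1 and HFD ff 2 Aldoa -0.095 and Gapdh -0.15 and Slc2a1 -0.16. For HFD against chow the log2 values were, with library totals Pgk1 0.057, with upper quartile scaling Pgk1 0.034, at a mean of 2 CPM or more Pgk1 0.00062, without the HFD ff libraries 1 and 3 Pgk1 0.14, without the libraries HFD Vill 1 and HFD ff 2 Gapdh -0.52.

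Leaving out 1 library at a time gave both signs for the following. For chow Vill against ff the range was -0.022 to 0.14 for Aldoa, -0.17 to 0.11 for Eno1, -0.015 to 0.15 for Gapdh, -0.23 to 0.19 for Ldha, -0.11 to 0.0087 for Pkm, -0.14 to 0.36 for Slc2a1, -0.051 to 0.17 for Tpi1. For HFD Vill against ff the range was -0.96 to 1.38 for Gapdh, -0.056 to 0.13 for Pfkl, -0.018 to 0.36 for Slc2a1. For the difference of the Vill effects the range was -0.070 to 0.092 for Aldoa, -1.02 to 1.32 for Gapdh, -0.0012 to 0.40 for Ldha, -0.26 to 0.039 for Pfkl, -0.16 to 0.32 for Slc2a1, -0.034 to 0.18 for Tpi1. For HFD against chow the range was -0.089 to 0.80 for Gapdh, -0.081 to 0.068 for Pgk1. In the comparisons with Alb, where Gapdh is described without a test, it kept its sign (-0.68 to -0.51 for Alb against ff and 0.62 to 0.71 for Vill against Alb), while 7 other members took both signs in each, within -0.29 to 0.23 for Alb against ff and -0.19 to 0.37 for Vill against Alb.

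Depth limits the scarce members: Gapdh rests on 291 to 2609 reads per library, against 14726 to 51429 for Ldha.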
